A study of Saccharomyces cerevisiae with 6 samples.

Results

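The genes described here act at the passage from G1 into S phase of the budding yeast cell cycle: G1 cyclins, the transcription factors SBF and MBF, and genes that those factors switch on late in G1. The group was set as a list of 35 gene symbols, and each symbol was matched to the array's annotation. All 35 had a single probe set, out of 5449 yeast genes measured with 1 probe set each. Transcripts were measured on 6 arrays in strain 26972c, an ammonium transport mutant whose labels give the genotype as mep1-1, mep2∆, Mep3 and ura-. On 3 arrays the cells carried the empty vector pYES3, and on the other 3 they carried pYES3 with GmbHLHm1, a soybean basic helix-loop-helix transcription factor also named SAT1, behind a promoter that galactose switches on. Every culture was grown first on 2% glucose and 0.1% proline, then moved for 12 h at 28 °C to 2% galactose with 0.5 mM ammonium sulfate, which supplies 1 mM ammonium. The comparison asks which yeast transcripts differ in amount when the soybean gene is expressed.

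In late G1 the cyclin Cln3, bound to the kinase Cdc28, releases SBF from the repressor Whi5, SBF being a complex of the DNA-binding protein Swi4 with Swi6. SBF then drives further G1 cyclins and genes for the bud and its wall. MBF, a complex of Mbp1 with Swi6, drives genes for DNA synthesis, and the repressor Nrm1 later shuts MBF targets off. Because these transcripts come and go once per cycle, their level in an unsynchronised culture depends both on output per cell and on the share of cells in that phase, and the arrays cannot tell these apart.

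Values are log2 RMA intensities, where 1 unit is a doubling, and differences are GmbHLHm1 minus empty vector. An array's background level was the 95th percentile of 1746 probe sets whose gene identifiers are not in the S. cerevisiae gene table. That these have no target in yeast RNA was assumed, as the annotation names no species, and the bound given further on for PLM2 rests on it. The level lay between 23.2 and 26.9 in intensity. On all 6 arrays 34 of the 35 genes lay above it, the exception being PCL1, and so did 5348 of all 5449 tested genes. MEP2, which is deleted in the strain, was below it on all 6 arrays. Its log2 change was still -0.40, past the test used here (limma adjusted p = 0.0433), so a call below background carries little weight. URA3, checked because the strain is ura-, was above background on all 6 arrays. Its means were 9.88 with the empty vector and 11.23 with GmbHLHm1, a log2 change of 1.35 (limma adjusted p = 0.0105). The part of URA3 in the results was not tested. The replicates came from starter cultures that may have been shared within a group, so p-values cover no more than the spread among these arrays, and a difference between starters cannot be told apart from one between constructs. Probe sets that serve as controls for ribosomal RNA (18S and 25S, 16 in all) were dimmer with GmbHLHm1, at a median difference of -1.01 log2 units, and their part in the results was not tested.

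Of the 35 genes 6 rose in GmbHLHm1 cells and none fell (limma, adjusted p under 0.05 over all 5449 genes). These were PRY2, GIC2, CLN2, SWI4, CDC45 and RNR1, which make up 17.1% of the group, while 7.45% of all tested genes rose and 4.64% fell (12.1% in either direction). The share of all genes that rose varied with intensity and was 14.6% at a mean log2 intensity from 6 to 8, as set out below. The median log2 change of the 35 genes was 0.15, against 0.019 over all tested genes. A higher mean was measured for 32 of the 35, against 56.7% of all tested genes. Only 21 of 35 kept it when the tested genes were quantile normalized again, with a median of 0.067, against 44.9% of all tested genes with a higher mean. In 13 of the 35 genes the GmbHLHm1 values lay wholly above the empty vector values, and in none did they lie wholly below, against 19.3% and 13.9% of all tested genes (33.2% in either direction). Without empty vector replicate 1, 2 or 3 the 6 calls became 2, 3 and 3.

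**Figure D1:**
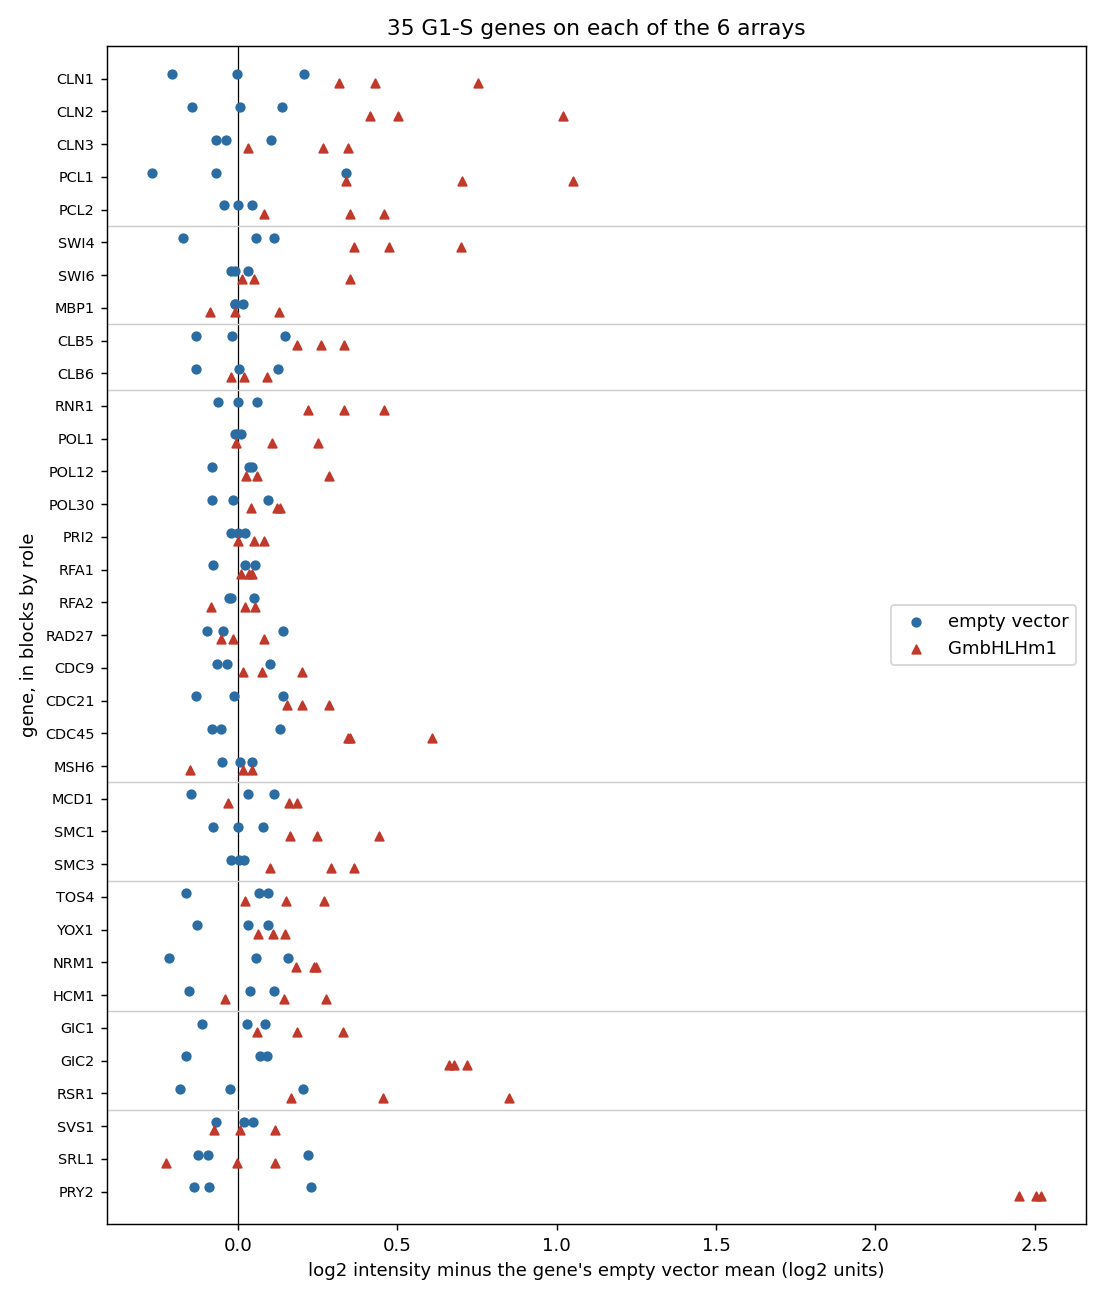
Each point is the log2 intensity of 1 gene on 1 array minus that gene's mean over the 3 empty vector arrays, in log2 units (horizontal axis), for the 35 genes in blocks by role (vertical axis), with circles for empty vector and triangles for GmbHLHm1. PRY2 stands apart on all 3 GmbHLHm1 arrays, and GIC2 has the most compact GmbHLHm1 values among the other genes that rose.

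The largest change was that of PRY2 (YKR013W), a secreted sterol-binding protein of the CAP family found at the cell wall. It was measured at 7.91, 7.87 and 8.23 on the empty vector arrays and at 10.51, 10.52 and 10.45 on the GmbHLHm1 arrays. All 3 GmbHLHm1 values were thus above every empty vector value by more than the spread within either group. The log2 change was 2.49 ± 0.10 (SE), a fold of 5.62 (n = 3 arrays per group, limma adjusted p = 1.84e-05), which ranked 6 among all 5449 genes. The other genes for secreted or wall proteins did not pass the test. SVS1, a serine- and threonine-rich wall protein gene and a known SBF target, had a log2 change of 0.016 with a 95% interval from -0.13 to 0.16. SRL1, a mannoprotein gene, had -0.037, with an interval from -0.32 to 0.24. For both, the groups overlapped and the interval ended far below the change of PRY2.

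Among the genes for bud emergence GIC2 (YDR309C) rose. Its product binds the GTPase Cdc42 and helps polarise actin toward the new bud. The empty vector arrays gave 8.05, 8.28 and 8.30, and the GmbHLHm1 arrays gave 8.93, 8.87 and 8.89. The GmbHLHm1 values lay within 0.03 (SD) of each other and above all of the empty vector values. The log2 change was 0.69 ± 0.07 (SE), a fold of 1.61 (limma adjusted p = 0.00168). PRY2 and GIC2 passed the test under all 15 alternative settings, with log2 changes of 2.42 to 2.61 and 0.60 to 0.73.

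GIC1, the paralog of GIC2, did not pass, with a log2 change of 0.19 ± 0.08 (SE; limma adjusted p = 0.193), and its sign turned with quantile normalization of the tested genes. The change of GIC2 exceeded that of GIC1 by 0.49 log2 units, and the per-array differences between the genes did not overlap between groups. In an exact permutation test over the arrays this gave p = 0.1, two-sided, the smallest that 3 against 3 allows, or 0.14 adjusted over 7 pairs of related genes. RSR1, a Ras-like GTPase gene of bud site choice, was measured at 6.44, 6.83 and 6.60 with the empty vector and at 7.47, 6.79 and 7.08 with GmbHLHm1. GmbHLHm1 replicate 2 lay within the empty vector range, and the log2 change of 0.49 ± 0.18 (SE) did not pass (limma adjusted p = 0.125), or 0.0406 without that array.

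The G1 cyclins all had a higher mean in GmbHLHm1 cells, also under both rescalings tried. Of the 5, 1 passed the test (20%, while 7.45% of all tested genes rose). CLN2 (YPL256C), a cyclin that partners Cdc28 at the commitment to division, gave 5.84, 6.12 and 5.99 with the empty vector. With GmbHLHm1 it gave 7.01, 6.40 and 6.49. The groups did not overlap, and GmbHLHm1 replicate 1 was the highest by a wide margin. The log2 change was 0.65 ± 0.16 (SE), a fold of 1.57 (limma adjusted p = 0.0426). That call lies at the edge of the threshold: adjusted p was 0.0909 after quantile normalization of the tested genes, and it reached 0.16 when single arrays were left out, with only the fits without GmbHLHm1 replicate 1 or 2 past the threshold.

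CLN1, the close relative of CLN2, was measured at 6.69, 6.90 and 7.11 against 7.65, 7.33 and 7.22. Again the groups did not overlap, yet with a log2 change of 0.50 ± 0.14 (SE) the gene missed the threshold (limma adjusted p = 0.0626). The changes of CLN2 and CLN1 differed by 0.15 log2 units, with per-array differences that overlapped between the groups (exact permutation test over arrays, two-sided, p = 0.4). CLN3, the most upstream G1 cyclin, had a log2 change of 0.22 ± 0.09 (SE; limma adjusted p = 0.181). PCL1 and PCL2 encode cyclins of the kinase Pho85. PCL2 had a change of 0.30 ± 0.09 (SE) without overlap between groups, and missed the threshold too (limma adjusted p = 0.094). After quantile normalization of the tested genes the changes of CLN1 and PCL2 were 0.29 and 0.038. PCL1 lay below background on all 3 empty vector arrays and on GmbHLHm1 replicate 2. Its measured means were 4.05 and 4.75. With a GmbHLHm1 array also below background, no lower bound was set on the fold of PCL1.

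Of the SBF and MBF subunits SWI4 rose. SWI4 (YER111C) encodes the DNA-binding subunit of SBF. Its values were 7.81, 7.87 and 7.58 with the empty vector and 8.46, 8.23 and 8.12 with GmbHLHm1. The groups did not overlap, and the log2 change was 0.51 ± 0.11 (SE), a fold of 1.43 (limma adjusted p = 0.024). Without empty vector replicate 1 or 3 the adjusted p was 0.0791 and 0.0751. MBP1, the DNA-binding subunit of MBF, stayed between 8.93 and 8.95 with the empty vector and gave 9.06, 8.93 and 8.85 with GmbHLHm1. Its log2 change was 0.011, with a 95% interval from -0.13 to 0.16. The change of SWI4 exceeded that of MBP1 by 0.50 log2 units without overlap between groups (exact permutation test over arrays, two-sided, p = 0.1, 0.14 adjusted over the 7 pairs). SWI6, the subunit that both complexes share, had a change of 0.14 ± 0.09 (SE; limma adjusted p = 0.382). The GmbHLHm1 values were 8.03, 7.72 and 7.69 against empty vector values of 7.65 to 7.71, and the groups overlapped.

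**Figure D2:**
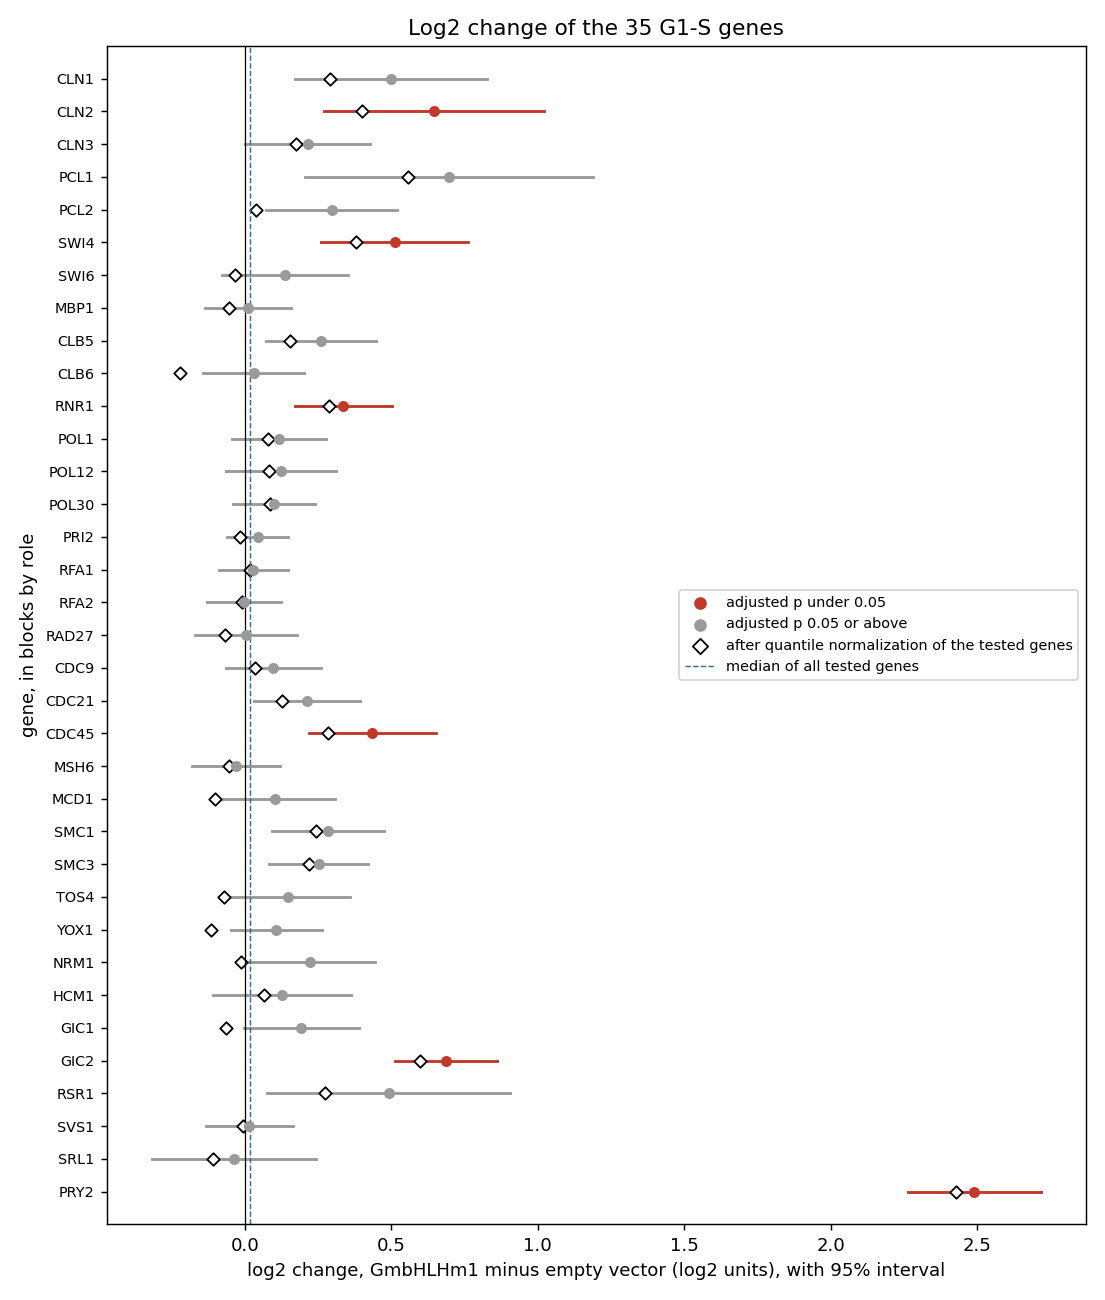
Filled points are the log2 changes of the 35 genes, GmbHLHm1 minus empty vector, with bars for the 95% interval of limma's moderated estimate (n = 3 arrays per group), and red marks the 6 genes past the test. Open diamonds give the change after quantile normalization of the tested genes, and the dashed line is the median of all tested genes at 0.019; the diamonds of 11 genes with a positive change lie below 0.

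In the block of 12 genes for DNA synthesis and repair 2 rose (16.7%, against 7.45% of all tested genes) and none fell. The median log2 change was 0.099, or 0.071 over the other 10 alone. CDC45 (YLR103C) encodes a part of the replicative helicase and is needed to start replication forks. It was measured at 7.70, 7.73 and 7.92 with the empty vector and at 8.39, 8.13 and 8.13 with GmbHLHm1. The groups did not overlap, and the log2 change was 0.44 ± 0.09 (SE), a fold of 1.35 (limma adjusted p = 0.0249). Without empty vector replicate 1 or 2 it was 0.109 and 0.096.

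RNR1 (YER070W), the large subunit of ribonucleotide reductase, which makes the precursors of DNA, gave 9.17, 9.23 and 9.29 with the empty vector and 9.45, 9.56 and 9.69 with GmbHLHm1. All GmbHLHm1 values were above those of the empty vector. Its log2 change was 0.34 ± 0.07 (SE), a fold of 1.26 (limma adjusted p = 0.024). It kept that call when GmbHLHm1 replicate 1 or 2 was left out and lost it in each of the other 4 fits that left out 1 array, where adjusted p reached 0.107. RNR3, the damage-inducible paralog of RNR1, had a log2 change of -0.043, and the changes of RNR1 and RNR3 differed by 0.38 (exact permutation test over arrays, two-sided, p = 0.1, 0.14 adjusted over the 7 pairs).

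The remaining genes of this block moved little. CDC21, thymidylate synthase, came closest, with values of 8.37, 8.65 and 8.49 against 8.66, 8.79 and 8.70. The groups were separated by a narrow gap only, and the log2 change of 0.21 ± 0.08 (SE) did not pass (limma adjusted p = 0.128). POL1 and POL12, subunits of DNA polymerase alpha, had changes of 0.12 and 0.12, and PRI2, of the primase that works with it, had 0.044 with a 95% interval from -0.06 to 0.15. POL30, the sliding clamp, had 0.099, and CDC9, DNA ligase, had 0.098. RFA1 and RFA2, of the single-strand binding complex, had 0.029 and -0.0030. RAD27, the flap endonuclease, had 0.0048, and MSH6, of mismatch repair, had -0.028. The intervals of these 9 genes reached at most 0.31, so a rise like that of CDC45 lay outside them.

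The S phase cyclins did not pass the test. CLB5, the main cyclin for origin firing, was measured at 8.05, 8.17 and 8.33 against 8.45, 8.37 and 8.52. Its groups did not overlap, with a log2 change of 0.26 ± 0.08 (SE; limma adjusted p = 0.0834). CLB6, its paralog, had 0.031 with an interval from -0.14 to 0.20, and the difference between the changes of the pair was 0.23 (exact permutation test over arrays, two-sided, p = 0.2). In the cohesin block the ring subunits SMC1 and SMC3 had changes of 0.29 ± 0.08 and 0.25 ± 0.07 (SE), both without overlap between groups. Both just missed the threshold (limma adjusted p = 0.0666 and 0.0675). MCD1, the subunit that closes the ring and a late G1 target in its own right, had 0.11 ± 0.09 (SE; limma adjusted p = 0.49).

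None of the 4 transcription regulators made in late G1 passed limma's test, 1 of them, NRM1, at an unadjusted p of 0.049. NRM1, the MBF corepressor, had a log2 change of 0.22 ± 0.09 (SE), TOS4 0.15, HCM1, a forkhead factor, 0.13, and the homeodomain repressor YOX1 0.11. The signs of NRM1, TOS4 and YOX1 turned with quantile normalization of the tested genes. YHP1, the paralog of YOX1 and not among the 35 genes, passed the test: it rose from 6.69, 6.93 and 6.88 to 7.34, 7.35 and 7.42. Its log2 change was 0.54 ± 0.07 (SE; limma adjusted p = 0.0040), or 0.31 after quantile normalization of the tested genes, and it stayed past the threshold when any single array was left out. The change of YHP1 exceeded that of YOX1 by 0.43 with no overlap between groups (exact permutation test over arrays, two-sided, p = 0.1, 0.14 adjusted over the 7 pairs).

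The small positive changes across the group were set against the general shift at each level of intensity. Among all 398 tested genes with a mean log2 intensity from 6 to 8, the median change was 0.18 and 78.6% had a higher mean in GmbHLHm1 cells. Past the test, 14.6% of these 398 genes rose, and 2 of the 11 G1-S genes there. The 11 G1-S genes in that range, CLN1, CLN2, PCL2, SWI6, CDC45, MCD1, TOS4, YOX1, NRM1, GIC1 and RSR1, had a median of 0.22. Quantile normalization brought these medians to -0.045 and -0.012. From 8 to 10, the median over 1709 genes was 0.044 and over the 17 G1-S genes 0.21, or -0.011 and 0.13 after quantile normalization. Past the test, 6.38% of these 1709 genes rose, and 4 of the 17 G1-S genes. From 10 to 12 the medians were 0.0041 over 2211 genes and 0.016 over 5 G1-S genes. The dimmer genes as a whole thus ran higher on the GmbHLHm1 arrays, and 6 of the 9 uncalled G1-S genes from 6 to 8 changed sign with quantile normalization, and none of them with median centring.

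**Figure D3:**
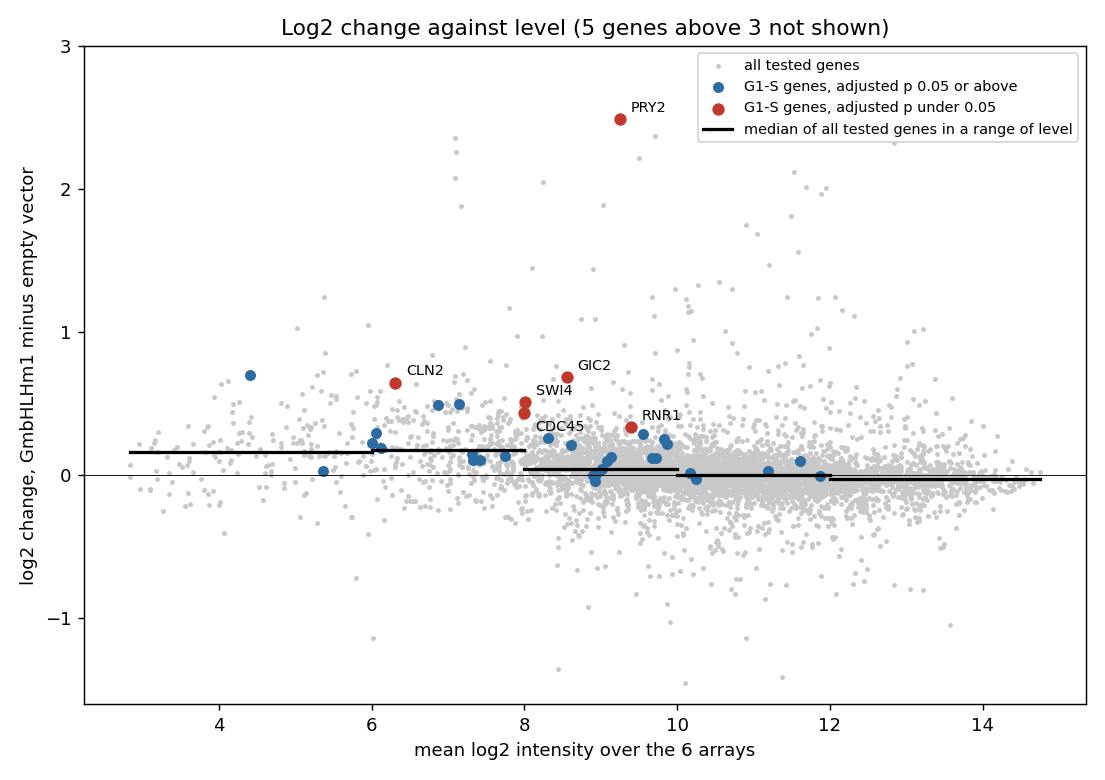
Log2 change, GmbHLHm1 minus empty vector (vertical axis), is plotted against the mean log2 intensity over the 6 arrays (horizontal axis) for all tested genes in grey and the G1-S genes in blue or, where past the test, red. Black lines mark the median change of all tested genes in 5 ranges of intensity, which is 0.16 below 6, 0.18 from 6 to 8 and -0.028 from 12 upward.

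The arrays of a group did not carry the G1-S genes equally. GmbHLHm1 replicate 1 was the highest of its group in 20 of the 35 genes and GmbHLHm1 replicate 3 the lowest in 19, while over all tested genes these shares were 41.3% and 33.1%. Empty vector replicate 1 was the lowest of its group in 24 of the 35, and in 48.6% of all tested genes. The median deviation of the 35 genes from their empty vector means was 0.25, 0.18 and 0.10 on GmbHLHm1 replicates 1, 2 and 3, and -0.080, 0.028 and 0.045 on the empty vector replicates. The SD was larger in the GmbHLHm1 group for 22 of the 35 genes and for 74.0% of all tested genes.

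**Figure D4:**
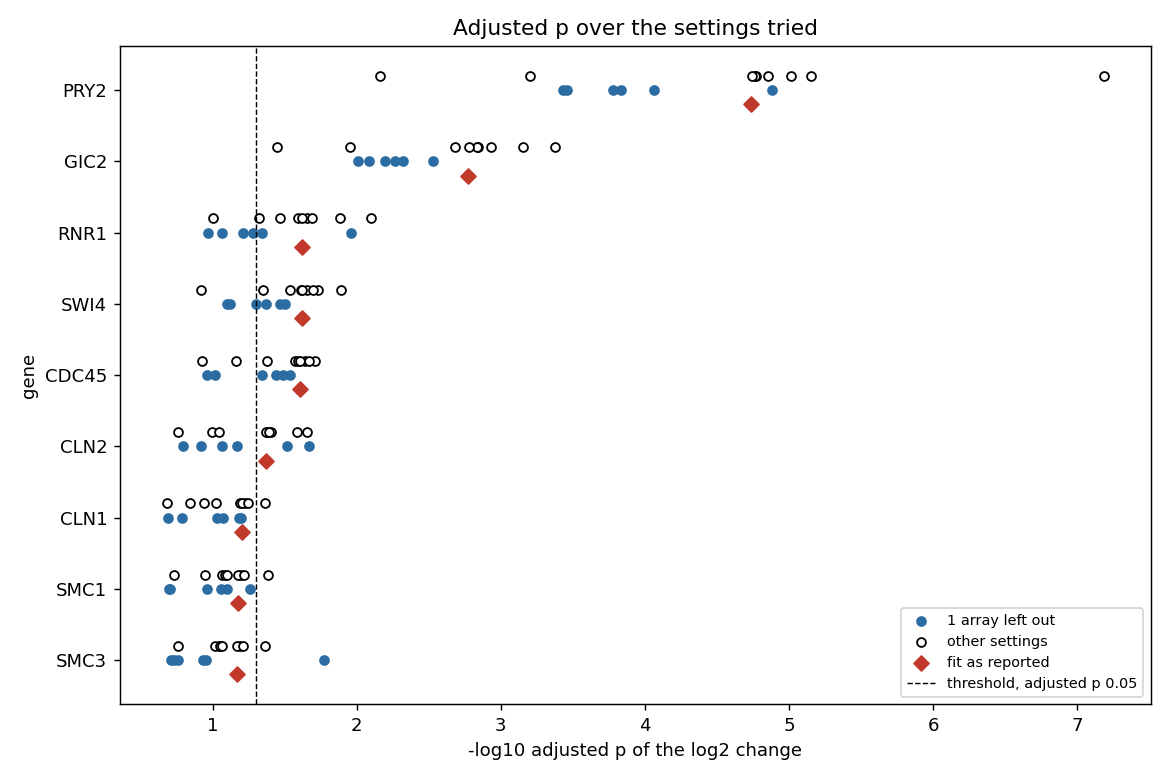
Adjusted p on a -log10 scale (horizontal axis) is shown for the 6 genes that rose and for CLN1, SMC1 and SMC3 (vertical axis) under the reported fit (diamonds), with 1 array left out (filled circles) and under the other settings (open circles), and the dashed line is the threshold of 0.05. PRY2 and GIC2 lie to the right of the line in every fit shown, and the other 7 genes have fits on both sides of it.

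Genes that act on SBF, MBF or the G1 kinase were then examined. Of 16 tested, 3 rose (18.75%) and 1 fell, while 7.45% of all tested genes rose and 4.64% fell. The median log2 change of the 16 was 0.014. CDC28, the kinase of the cell cycle cyclins, rose by 0.35 ± 0.06 (SE), from 9.20, 9.35 and 9.27 to 9.53, 9.65 and 9.67 (limma adjusted p = 0.0138, and up to 0.0677 with 1 array left out). CDC34, the ubiquitin-conjugating enzyme that helps remove G1 inhibitors, rose by 0.21 (limma adjusted p = 0.0307, up to 0.131 with 1 array left out), and YHP1 is described above. MSA2, an activator that binds SBF and MBF, fell by 0.32 ± 0.07 (SE; limma adjusted p = 0.0272, up to 0.105 with 1 array left out). WHI5, the SBF repressor, had a log2 change of -0.070 (limma adjusted p = 0.64). SIC1, the inhibitor of S phase cyclins, had 0.027 (0.84), and FAR1, the inhibitor that pheromone engages, had 0.13 (0.19).

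Late G1 genes of the wall and bud outside the 35 were counted next. This list, like the 35 genes and the other lists, was chosen with earlier results of these data known. Its share of calls therefore cannot serve as a test. Of 18 tested, 7 rose and none fell (38.9%, against 7.45% of all tested genes; median log2 change 0.24, or 0.073 after quantile normalization of the tested genes), and 4 to 6 rose when single arrays were left out. MNN1, a mannosyltransferase gene, rose by 2.22, and EXG1, the major exo-glucanase of the wall, by 2.12 ± 0.10 (SE; limma adjusted p = 3.55e-05). The smallest calls were TOS1 at 0.33 and TEC1, a transcription factor of filamentous growth, at 0.24, each lost in most fits with 1 array left out. HO, the mating type endonuclease and a classic SBF target, had 0.35 ± 0.10 (SE) without overlap between groups and did not pass (limma adjusted p = 0.0624). It was named after its values were seen.

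Of 24 other replication and repair genes 3 rose and none fell (12.5%, against 7.45% of all tested genes), or 1 to 5 with single arrays left out. RNR4 and RNR2, the small subunits of ribonucleotide reductase, rose by 0.34 ± 0.04 and 0.28 ± 0.04 (SE; limma adjusted p = 0.00301 and 0.00868), in the same direction as RNR1. PLM2, the paralog of TOS4, was below background on all 3 empty vector arrays and above it with GmbHLHm1. Its measured means were 4.65 and 5.13 (limma adjusted p = 0.0482, up to 0.173 with 1 array left out). With the background level in place of the empty vector values, the lower bound on its fold was 1.33, or 0.42 in log2 units. That bound holds only for the deposited scaling, as the log2 change was 0.28 after quantile normalization of the tested genes. Of 7 cohesion genes 2 rose (28.6%, against 7.45% of all tested genes). ESP1, the separase, rose by 0.68 ± 0.06 (SE; limma adjusted p = 0.000571). ECO1, the cohesin acetyltransferase, rose by 0.34 (limma adjusted p = 0.0415, and 0.171 after quantile normalization of the tested genes). ESP1 passed in all 6 fits with 1 array left out and ECO1 in 1 of them, with an adjusted p of up to 0.157.

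Genes that peak in other phases of the cycle were counted in the same way. None of 9 histone genes of S phase passed limma's test, 3 at an unadjusted p under 0.05, and their median log2 change was -0.054. HTA1, histone H2A, had the smallest p, with -0.19 ± 0.05 (SE; limma adjusted p = 0.0598). Of 15 G2-M genes 2 rose (13.3%, against 7.45% of all tested genes): CDC20, the activator of the anaphase-promoting complex, by 1.17 ± 0.07 (SE; limma adjusted p = 0.000149) and the kinase gene KIN3 by 0.59 ± 0.07, or by 0.32 after quantile normalization of the tested genes. Of 19 M-G1 genes 6 rose and none fell (31.6%, against 7.45% of all tested genes; median 0.13), or 1 to 5 with single arrays left out and 5 rose and 2 fell after quantile normalization of the tested genes. AMN1, an antagonist of mitotic exit, rose by 0.55 and MCM5, of the replicative helicase, by 0.33, while MCM4 at 0.18 and ASH1, a repressor of HO, at 0.23 were the smallest calls. The M-G1 list was mixed in direction, as 8 of its 19 genes had a lower mean, down to -0.31, none of them past the test in the reported fit. The shares of these lists were not tested against each other.

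**Figure D5:**
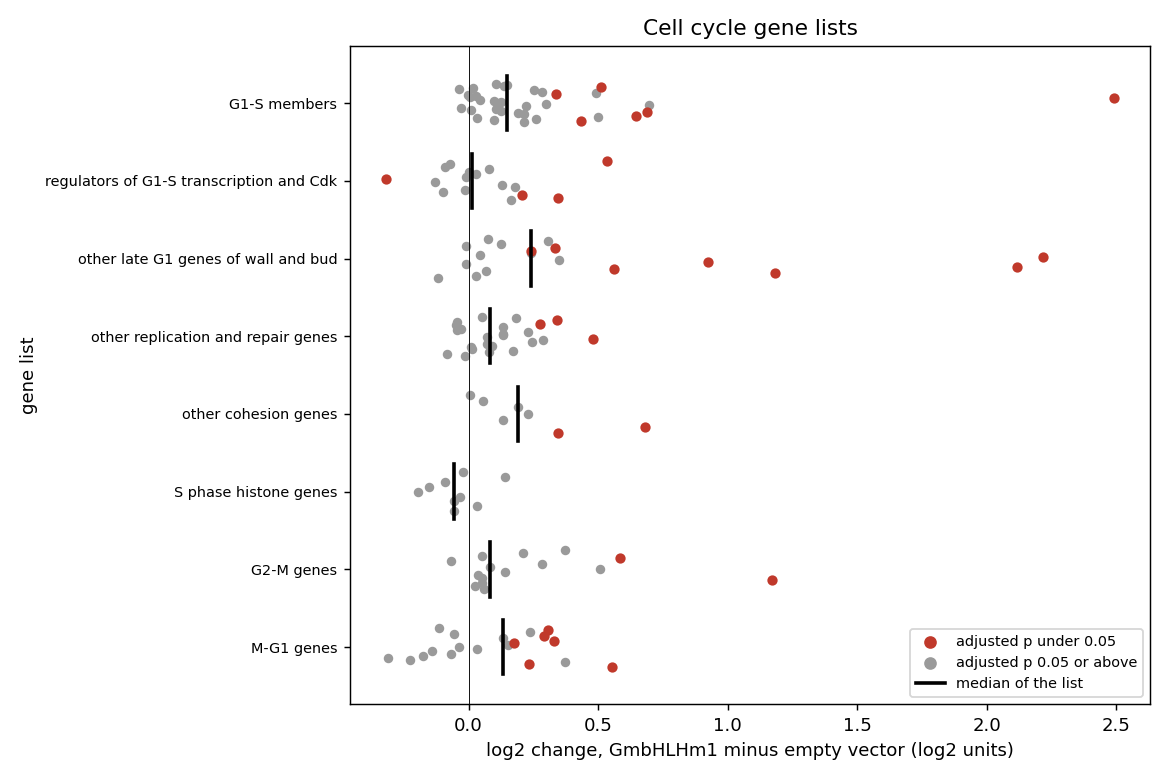
Each point is the log2 change of 1 gene, GmbHLHm1 minus empty vector (horizontal axis), in the 35 G1-S genes and 7 further cell cycle lists (vertical axis), red where the adjusted p was under 0.05, and black bars are the medians. The medians lie at 0.15 for the G1-S genes, 0.24 for the other late G1 genes of wall and bud and -0.054 for the histone genes.

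Mating genes served as markers of the cell type. Genes of both mating types lay above background on all 6 arrays, 6 of 6 for a cells and 4 of 4 for alpha cells. As 5348 of all 5449 tested genes did so too, this does not tell the mating type of the cells. Of the 6 a genes 5 rose (83.3%, against 7.45% of all tested genes), and AGA2 had -0.091 (limma adjusted p = 0.412). The 5 that rose ran from 0.38 for ASG7 and 0.41 for STE2, the alpha-factor receptor, to 1.33 for MFA2, an a-factor gene. After quantile normalization of the tested genes 4 of them passed, and ASG7 had 0.11 (limma adjusted p = 0.36). The 4 alpha genes had a median log2 change of 0.012. MF(ALPHA)1 rose by 0.64 (limma adjusted p = 0.0203), or 0.39 after quantile normalization, and that call was lost without empty vector replicate 1 or 2. SAG1, the alpha-agglutinin gene, had -0.25 without overlap between groups (limma adjusted p = 0.0826), MF(ALPHA)2 0.069 and STE3 -0.045. Their part in the G1-S results was not tested.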

How the data were processed

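RNA of 6 yeast cultures was hybridised to the Affymetrix Yeast Genome 2.0 array, 3 per group. The deposited intensities came from RMA as the authors ran it, per the submitters' processing notes; which software did so is not given in the sources used here. They are linear, as their range of 5.00 to 28314 shows, and were put on a log2 scale for this work. Of 10928 probe sets 5498 matched S. cerevisiae genes (assembly R64, for names and neighbours only), giving 5449 genes; of several probe sets the one with the highest mean was used. The test was limma's moderated one (version 3.58.1, R 4.3.3; two-sided, no block, no filter, Benjamini-Hochberg adjustment over all genes, threshold 0.05). In simulated data of 5449 genes, 85.1% of log2 changes of 0.5 and 97.9% of changes of 1 were recovered, with 0.187% of unchanged genes called. The simulated noise was normal and independent between genes, with the same SD in both groups and no shift by intensity. The arrays differ from this in spread and in shift, so these rates check the code and are not error rates of the arrays. Differences between related genes used exact permutation tests. The number of arrays limits the precision. The 35 members and all lists were chosen with earlier results of these data known. Of the other lists, up to 2 highest and 2 lowest genes past the test are named, or that with the smallest p, and WHI5, CDC28, SIC1, FAR1 and MNN1 always. The 7 pairs of related genes were chosen after values were seen. Plots used Python 3.11.15 and matplotlib 3.10.9.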

Additional observations from a re-analysis of the deposited data

How the results depend on the processing

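The tests used 3 arrays per group and 1 variance per gene. Of the 6 G1-S calls PRY2 and GIC2 passed in all 15 alternatives. With the replicate block 427 genes passed in place of 659, 4 G1-S genes among them (CDC45 and CLN2 lost); same-numbered arrays had deviations correlated at -0.065, -0.082 and 0.14, so the numbers were not taken to pair the arrays. Without moderation 284 genes and 2 G1-S genes passed, and with 1 array left out 251 to 723 and 2 to 8. A trend and robust prior added CLN1, SMC1 and SMC3. The filter on dim probe sets, the mean over probe sets and log2(value + 16) kept all 6 calls, as did array weights and median centring. When the tested genes were quantile normalized again, 331 rose and 332 fell, in place of 406 and 253, and CLN2 was lost. Signs turned only for genes that had not passed the test. With quantile normalization they were SWI6 (-0.033), MBP1 (-0.053), CLB6 (-0.22), PRI2 (-0.016), RAD27 (-0.068), MCD1 (-0.10), TOS4 (-0.069), YOX1 (-0.11), NRM1 (-0.012), GIC1 (-0.064) and SVS1 (-0.0070). With median centring they were MBP1 (-0.015), RAD27 (-0.021) and SVS1 (-0.0099), and with array weights MBP1 (-0.031), RFA2 (0.014) and RAD27 (-0.019). With 1 array left out the log2 change ran from -0.0090 to 0.056 for RFA1, -0.032 to 0.038 for RFA2, -0.044 to 0.076 for RAD27, -0.034 to 0.061 for SVS1, -0.034 to 0.094 for CLB6, -0.11 to 0.072 for SRL1, -0.047 to 0.060 for MBP1 and -0.066 to 0.031 for MSH6. The median log2 change of the G1-S genes stayed positive, from 0.067 to 0.20. The causes were not tested.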

Other observations

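The genes next to the 35 on the chromosome were listed in the order of assembly R64. Of 66 tested neighbours 3 rose and 3 fell (limma, adjusted over all genes), against 7.45% and 4.64% of all tested genes. These 66 include SWI6 and TOS4, which belong to the 35 genes and lie next to each other. The 10 tested neighbours of the 6 genes that rose included none that rose and 1, LCL2 beside CDC45, that fell by 0.23 (limma adjusted p = 0.0465). BBP1, which lies on the upstream side of CLN2 on the other strand, had a log2 change of 0.060, and LSM4, likewise placed beside SWI4, had -0.030. The largest change among all neighbours was that of PSA1, the GDP-mannose synthesis gene next to MBP1, which rose by 2.33 while MBP1 itself had 0.011. CIK1, a gene for a kinesin-associated protein upstream of CLN1 on the same strand, rose by 0.44 (limma adjusted p = 0.0247), and CYC3, the cytochrome c heme lyase gene upstream of CLN3, fell by 0.53 (limma adjusted p = 0.00734). These genes were named after their values were seen.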
